A study of Rattus norvegicus with 30 samples.

Results

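The genes described here mark the granule cells and the Purkinje cells of the cerebellum. They are 10 of the 17134 genes in the expression table: 8 granule cell genes (Gabra6, Cbln3, Cbln1, Neurod1, En2, Zic1, Zic2 and Pax6) and 2 Purkinje cell genes (Pcp2 and Car8). They were chosen from their values in these same libraries, after a few rats had been seen to carry cerebellar transcripts. Their levels rat by rat are therefore a description without a test. The p-values given below, for genotypes and for correlations with olfactory bulb genes, are for genes chosen in this way. Of the 10 genes, 9 were found by symbol, and Car8 was found as Ca8, its synonym in the RefSeq gene table.

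RNA-seq was done on brain tissue of 30 male rats on a normal diet, 10 per group. WT rats express rat amylin only. HIP rats carry human amylin, expressed in pancreatic β-cells, on a Sprague Dawley background, and express rat amylin as well. AKO rats are rat amylin knockouts. WT and HIP rats were 15 to 16 months old, and the ages stated for AKO rats in the methods belong to smaller sets of animals, so that of the 10 sequenced AKO rats is not given in the sources used here. The tissue is named frontal cortex in the sample labels, cerebral cortex in the methods and hippocampal in the results of the study. Iapp, the amylin gene, was not analysed here, so the knockout was not checked on its target. Values are normalized counts, in which 1 read was worth 0.727 to 1.37. Estimated reads on genes were 12.9 to 21.1 M in WT, 13.7 to 16.7 M in HIP and 12.9 to 23.6 M in AKO rats. A level of 3 reads, used as a detection floor, equals 2.18 to 4.11 normalized counts. Each library is a separate rat, so the p-values given below measure the spread among rats.

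Granule cells are the small, densely packed excitatory neurons of the cerebellar cortex. Their axons, the parallel fibres, synapse on the dendrites of Purkinje cells, which are large inhibitory neurons and the sole output of that cortex. Neither cell type is part of the frontal cortex, although several of the genes, in particular Pax6, Zic1, Zic2, Cbln1 and Neurod1, are also used by forebrain or olfactory bulb neurons.

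Upstream sequence was available for 6 of the 10 genes (Gabra6, Neurod1, En2, Zic2, Pax6 and Pcp2). The windows of Gabra6 and Pcp2 are shown because these 2 genes, which have a low background, stand for the granule and the Purkinje cell in the ratios given below. Both are the 250 bases before the annotated start in RefSeq on GRCr8, whereas the expression table was made on rn7, and both genes are on the minus strand. The Gabra6 window lies at chr10:27327235-27327484, and its capitals mark the only match to TTGGCA, the core motif of nuclear factor I, found on the opposite strand and beginning at base -79. The Pcp2 window lies at chr12:6481308-6481557, and its capitals mark the only match to AGGTCA, the core motif of retinoid-related orphan receptors such as Rora, at base -26.
Gabra6: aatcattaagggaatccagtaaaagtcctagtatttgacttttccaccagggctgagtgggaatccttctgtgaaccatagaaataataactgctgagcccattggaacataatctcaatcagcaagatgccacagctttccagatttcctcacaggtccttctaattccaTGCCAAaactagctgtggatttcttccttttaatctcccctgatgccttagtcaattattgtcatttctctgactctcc
Pcp2: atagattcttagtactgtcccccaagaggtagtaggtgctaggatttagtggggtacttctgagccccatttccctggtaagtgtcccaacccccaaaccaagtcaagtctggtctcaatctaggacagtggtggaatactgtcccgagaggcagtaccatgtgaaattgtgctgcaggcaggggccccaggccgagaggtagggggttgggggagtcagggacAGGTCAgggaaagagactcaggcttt
Searched on both strands, TTGGCA was present in 1 of the 6 windows and AGGTCA in 1 of the 6. These letters were present in 12.0% and 14.1% of all 33469 windows of the same length. The E-box CANNTG, which proneural factors such as Neurod1 recognize, was present in 2 of the 6 (Neurod1 and Pcp2) and in 65.5% of all windows. The 3 motifs share no overlapping match in these windows. A match is a description of the letters only.

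Cerebellar transcripts were abundant in 2 libraries, those of WT rat 10RT43 and HIP rat 12RT23. Gabra6, a GABA-A receptor subunit made by granule cells, was at 17979 normalized counts in 10RT43 and 1564 in 12RT23. In the other 28 rats it ranged from 1.12 to 16.5, with a median of 7.06. The libraries were separated at a Gabra6 level of 100, and the nearest values to this threshold were 1564 above it (12RT23) and 16.5 below it (AKO rat 4KAH27). No library lay between, and thresholds of 50 and 200 gave the same 2 rats. In bulk tissue, more cells of a type and more RNA per cell cannot be told apart.

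**Figure D1:**
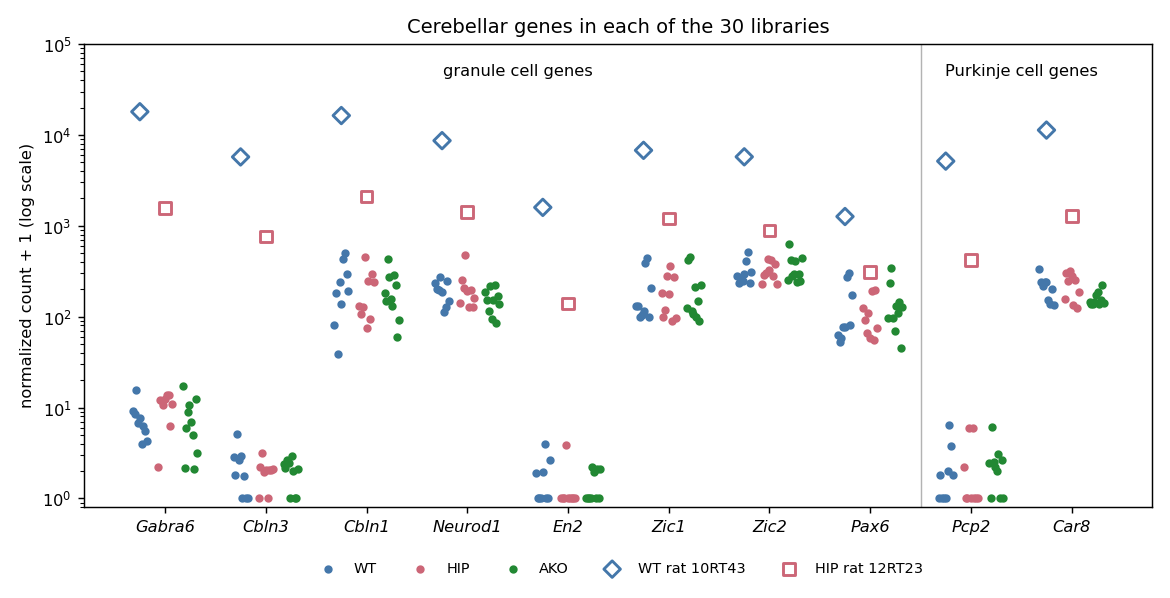
Normalized count + 1 (log scale) of each gene in each of the 30 libraries, by group (WT, HIP and AKO, points spread sideways within a group). Open symbols are WT rat 10RT43 and HIP rat 12RT23. The library of 10RT43 is the highest for all 10 genes, and 12RT23 is above the other 28 rats for every gene but Pax6. Of all genes, 19.02% were above these 28 rats in 10RT43 and 5.24% in 12RT23.

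The cerebellins are secreted proteins that parallel fibres use to hold their synapses on Purkinje cells. Cbln1, the main synapse organizer of this family, was at 16318 in 10RT43, 2094 in 12RT23 and 37.4 to 507 in the other 28 rats (median 181). Cbln3, which is made by granule cells and is secreted together with Cbln1, was at 5719, 758 and 0 to 4.16 (median 1.05). Both genes placed 10RT43 and 12RT23 above every other rat, but they differed in background. Cbln1 exceeded 3 reads in all 28 other libraries, whereas Cbln3 did so in 1, WT rat 10RT44, and was at 0 in 8.

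Transcription factors of the granule lineage gave the same order of rats. En2, a homeobox gene of the midbrain and hindbrain, was at 1592 in 10RT43 and 138.2 in 12RT23. It was at 0 in 19 of the other 28 rats and never above 3 reads in the rest (highest 2.96 in WT rat 10RT50). Neurod1, which drives the differentiation of granule neurons, was at 8643 and 1410, and at 84.3 to 474 in the others (median 177). The 474 was in HIP rat 10RT46, whose mean log2(normalized count + 1) was 9.77 over pineal gland genes and 8.93 over choroid plexus genes. The pineal mean was at most 1.91 in every other rat. The zinc finger gene Zic1 was at 6758 and 1202 vs. 89.1 to 452 (median 130.8). Zic2 was at 5734 and 885 vs. 229 to 635 (median 291). For these 4 genes the 2 rats did not overlap the other 28. Of all genes, 19.02% were above the 28 in 10RT43 and 5.24% in 12RT23. The 4 genes were chosen from these values, so the separation restates the choice.

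Pax6, a paired-box factor of granule cell precursors and of olfactory bulb neurons, was the exception. It was at 1263 in 10RT43 and 307 in 12RT23, and at 44.1 to 338 in the other rats (median 94.6). The level in 12RT23 was 0.907 of that in AKO rat 6AKO35, so only 10RT43 stood above all others.

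The Purkinje cell genes were high in the same 2 libraries. Pcp2, a modulator of G-protein signalling was at 5141 in 10RT43 and 418 in 12RT23. It was at 0 in 13 of the other 28 rats, with a median of 0.828 and a highest level of 5.41 in WT rat 10RT51. Car8, a carbonic anhydrase-related protein that binds the inositol trisphosphate receptor of Purkinje cells, was at 11287 and 1276 vs. 124 to 329 (median 179). Pcp2 thus had almost no background outside the 2 libraries, and Car8 had a background in every library.

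The level in 10RT43 was 3.74 (Pax6) to 1375 (Cbln3) times that of the highest of the other 28 rats, 1092 times for Gabra6 and 951 times for Pcp2. For 12RT23 the same ratio was 0.907 (Pax6) to 182 (Cbln3), with 95.04 for Gabra6 and 77.3 for Pcp2. Of all the Gabra6 normalized counts in the 30 libraries, 91.0% were in 10RT43 and 7.92% in 12RT23. For Pcp2 the shares were 91.9% and 7.47%, and for En2 91.3% and 7.92%.

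To set granule against Purkinje genes, the level in 12RT23 was expressed as a percentage of the level in 10RT43 after the median of the other 28 rats was subtracted from both. It was 8.66% for Gabra6 and 8.12% for Pcp2. The 8 granule genes ranged from 8.66% to 18.1% (median 12.5%), and the Purkinje genes were at 8.12% (Pcp2) and 9.88% (Car8). In 4 genes the background was at most 1% of the level in 10RT43, so that the subtraction changed them little: Pcp2 (8.12%), Gabra6 (8.66%), En2 (8.68%) and Cbln3 (13.2%). For the others the choice of background mattered. With the highest instead of the median background, Pax6 changed from 18.1% to -3.39%, Zic2 from 10.9% to 4.90% and Zic1 from 16.2% to 11.9%.

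**Figure D2:**
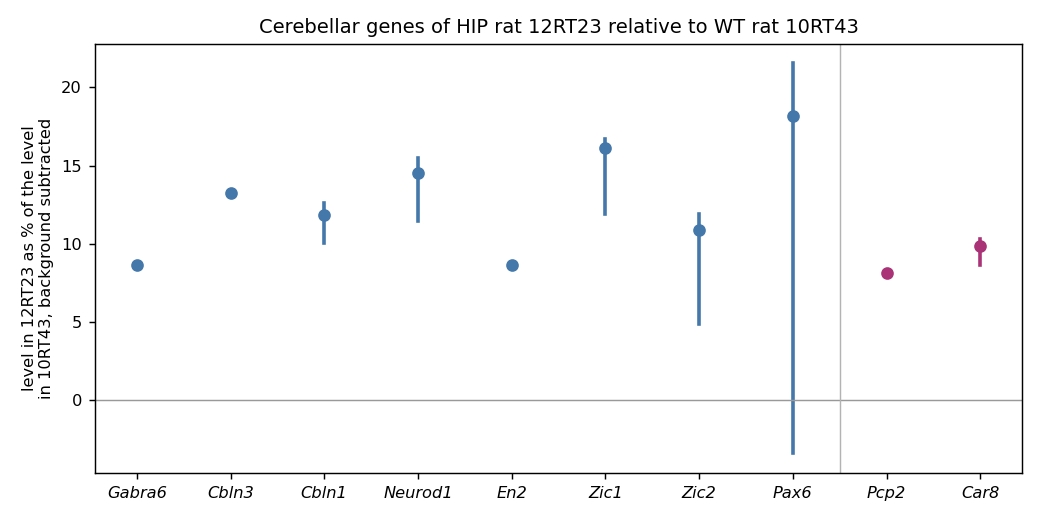
Level of each gene in HIP rat 12RT23 as a percentage of that in WT rat 10RT43, after subtraction of the median of the other 28 rats (points). Lines run from the value with their highest to that with their lowest background; the lines of Gabra6, Cbln3, En2 and Pcp2 are shorter than the points, and that of Pax6 reaches -3.39%.

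The ratio of genes within a library restates the same values in another form. Pcp2 was at 28.6 per 100 of Gabra6 in 10RT43 and at 26.7 in 12RT23. The exact 95% binomial intervals on estimated reads were 27.6 to 29.6 and 23.7 to 30.04, which overlap. En2 was at 8.85 (8.37 to 9.37) and 8.83 (7.26 to 10.7) per 100 of Gabra6. Cbln3 was not in the same proportion, with 31.8 (30.8 to 32.9) in 10RT43 and 48.5 (44.1 to 53.3) in 12RT23, and its background was 0.0184% of its level in 10RT43. These intervals cover counting error only and compare 2 libraries, not groups. The remaining members were also higher per 100 of Gabra6 in 12RT23, from 1.14 times (Car8) to 2.09 times (Pax6) the proportion in 10RT43 after background subtraction.

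Other genes of the same cells were read from lists of granule, Purkinje and neighbouring cell types. In 10RT43, 10 of 11 other granule genes and 14 of 16 other Purkinje genes were above all 28 other rats, compared with 19.02% of all genes in the table. In 12RT23 these counts were 7 of 11 and 11 of 16, compared with 5.24% of all genes. Among the granule genes, Fat2, a protocadherin-like adhesion protein of parallel fibres, was at 12563 in 10RT43 and 1424 in 12RT23 vs. 4.92 to 30.8 in the others. Crtam was at 1074 and 97.5 vs. 0 to 1.21. Kcnk9, a potassium channel, was the granule gene that was not above the others in 10RT43, with 159.1 vs. 43.7 to 296. In 12RT23, Kcnk9 (265), Grin2c (1081 vs. up to 1435), Gabrd (1606 vs. up to 2299) and Cadps2 (1359 vs. up to 2356) were not above them.

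Among the Purkinje genes, Calb1 (calbindin, a calcium buffer) was at 9256 and 2421 vs. 639 to 1808. Slc1a6, the glutamate transporter of Purkinje cell spines, was at 2608 and 483 vs. 46.8 to 94.6, and Lhx1 was at 794 and 98.7 vs. 0 to 5.82. Itpr1, the inositol trisphosphate receptor that Car8 binds, was at 27484 and 16786 vs. 4669 to 13061. In 10RT43, Rora was at 92.1 vs. 13.9 to 95.1 in the others, and Foxp2 was at 62.2, below their range of 70.5 to 281. Pvalb had no row under this symbol and was not analysed here.

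The other members of the cerebellin family and their partners did not share this pattern as a group. Of 7 genes listed, 2 were above all 28 other rats in 10RT43 and 3 were below. Of all genes in the table, 19.02% were above and 20.2% below in this library. The family members that forebrain neurons use were low in 10RT43. Cbln2 was at 5.98 vs. 604 to 1953 in the other 28 rats, Cbln4 at 2.39 vs. 65.0 to 381, and Grid1, a postsynaptic receptor, at 317 vs. 639 to 985. In 12RT23, Cbln2 (1492), Cbln4 (130) and Grid1 (745) lay within the range of the others. Among the neurexins, the presynaptic partners, Nrxn2 was not set apart (9217 and 8918 vs. 5000 to 10188), and Nrxn3 was at 3304 in 10RT43 vs. at most 2991.

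Genes of other cerebellar cells were high to a varying degree. Of 7 interneuron genes, 4 were above all 28 other rats in both libraries. The share of all genes was 19.02% in 10RT43 and 5.24% in 12RT23. Eomes, Lmx1a and Grm2 were within the range of the others in both, with Grm2 at 513 in 10RT43 vs. 507 to 1848. Slc6a5, the glycine transporter of Golgi cells, was at 536 and 128 vs. 15.8 to 70.8. Of 5 Bergmann glia genes, 3 were above in 10RT43, where 19.02% of all genes were, and 1 (Gdf10, at 1203 and 367 vs. 28.1 to 161) in 12RT23. Hopx, at 252 in 10RT43, was below the 368 to 703 of the others, as were 20.2% of all genes, and Fabp7, at 326, was within their range of 219.9 to 1797. None of the 3 brainstem genes measured (Dbh, Tph2 and Gata3) was above the other rats in either library, and 18 genes of that list were not matched by symbol.

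The labelled tissue was checked on forebrain genes. In 10RT43, 8 of 10 forebrain and neocortex genes were below all 28 other rats, against 20.2% of all genes. Emx1, a transcription factor of the dorsal forebrain, was at 0 in 10RT43 vs. 193 to 564, and Fezf2, of deep-layer cortical neurons, was at 0 vs. 340 to 875. A count of 0 allows up to 3 reads. Tbr1 was at 16.7 in 10RT43 vs. 1433 to 3190 in the others, and Emx2 at 1.20 vs. 123 to 417. Neurod6 was at 851, within the range of 808 to 1995. Lamp5 was at 2560, within 1926 to 6847, and Cux2 at 441, below 732 to 2663. The library of WT rat 10RT43, labelled frontal cortex, had Emx1 and Fezf2 at 0, and Tbr1 and Emx2 far below the other rats. Of that list, only Neurod6 and Lamp5 were within their range.

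The library of 12RT23 held both sets of genes. Its Emx1 (287), Tbr1 (2379) and Fezf2 (840) lay within the range of the other 28 rats. None of its 10 forebrain genes was below the others, and 3.70% of all genes were. Of 9 striatal genes, 1 was below all 28 other rats in 12RT23 (Adora2a, 47.6 vs. 55.2 to 1361). In 10RT43, 4 of the 9 were below them, where 20.2% of all genes were. Lists for the striatum, thalamus, dentate gyrus, choroid plexus, meninges and pineal gland had 0 of 9, 0 of 7, 1 of 3, 0 of 8, 0 of 9 and 0 of 10 genes above all others in 12RT23. In 10RT43 the corresponding counts were 0, 1, 1, 0, 0 and 0. Of all genes, 5.24% were above all others in 12RT23 and 19.02% in 10RT43. With lists this short, a count of 0 is close to the share in 12RT23. The dentate gene was Prox1 (237 and 80.1 vs. 12.1 to 63.0), and the thalamic gene was Prkcd (982 in 10RT43 vs. 222 to 465). Of 7 olfactory bulb genes, 1 was above all others in both libraries. This was Barhl2 (994 and 145.1 vs. 0 to 22.5), a homeobox gene of several brain regions.

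**Figure D3:**
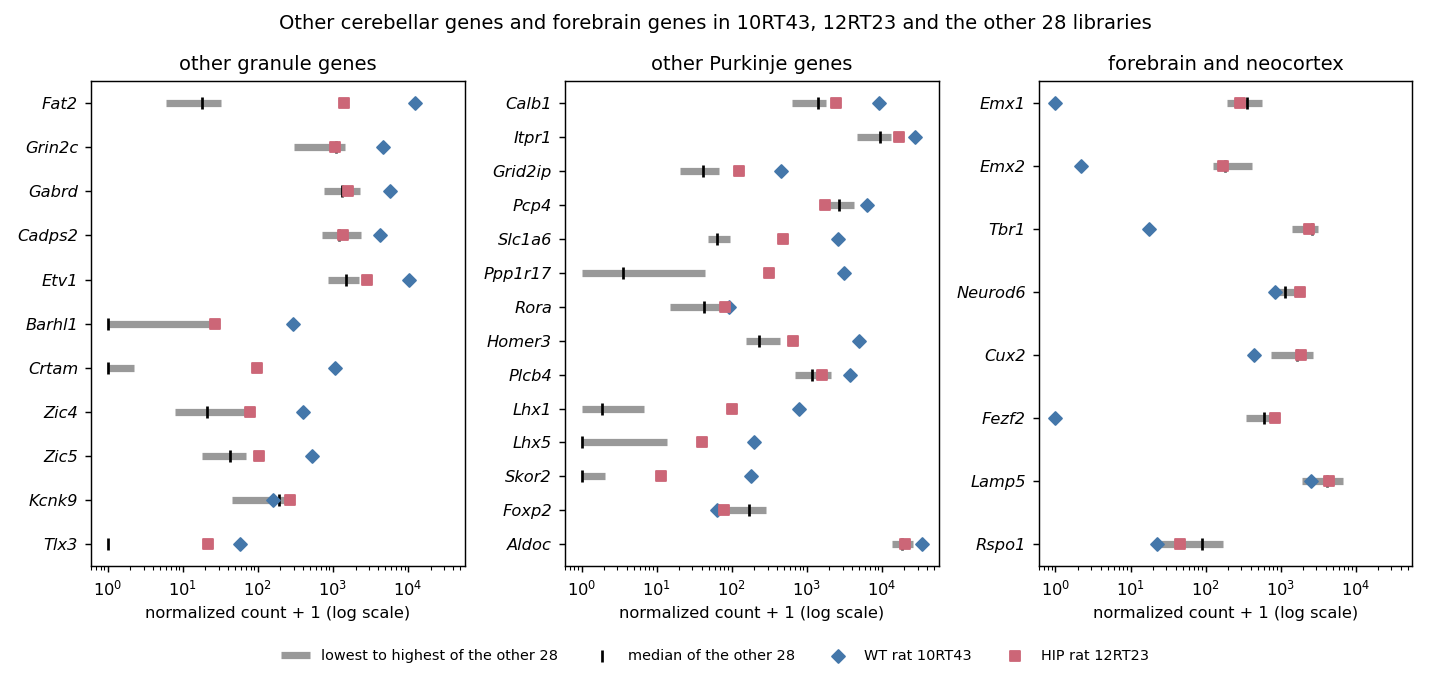
Normalized count + 1 (log scale) of other granule genes, other Purkinje genes and forebrain genes. Diamonds are WT rat 10RT43, squares HIP rat 12RT23, grey bars the lowest to highest and black ticks the median of the other 28 rats; Emx1 and Fezf2 are at 0 in 10RT43 and within the bars in 12RT23.

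The genes most like Gabra6 across the 30 rats were found among 13702 genes with a symbol and a mean of at least 10. Pearson correlations of log2(normalized count + 1) are given as a description, because all of them rest on the same 2 libraries. Among the 10 most alike were Crtam (0.95), Slc1a6 (0.93), Apela (0.92), Uncx (0.92), Cnpy1 (0.91), Fat2 (0.90), Grid2ip (0.89), Cep76 (0.88) and Cdh15 (0.88). For Pcp2 they were Apela (0.96), Crtam (0.95), Lhx1 (0.94), Uncx (0.93), Fam107b (0.92), Arhgef33 (0.92), Atp2a3 (0.91), Cnpy1 (0.90), Chn2 (0.89) and Sdc1 (0.89). Crtam, Apela, Uncx and Cnpy1 are on both lists. Over the 29 rats other than 10RT43, the correlations of the listed genes were 0.65 to 0.91.

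A wider set of low-background genes gave a similar share. In the whole table, 16 genes, 4 of them members, had at least 500 in 10RT43 and a median background of at most 1% of that level. In the 16 genes, 12RT23 was at 7.93% to 14.5% of 10RT43, with a median of 10.9%. They were selected on their values after these were seen. They are Cnpy1, Pcp2, Gabra6, En2, Crtam, Apela, Ppp1r17, Sdc1, Hes3, Fat2, Uncx, Dao, Lhx1, Cbln3, Barhl2 and Impg1.

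In the remaining 28 libraries, which no longer include 10RT43 and 12RT23, Gabra6, Cbln3, En2 and Pcp2 were near the floor, and the other 6 genes were above 3 reads in every library. Gabra6 was above 3 reads in 23 of the 28. Its range was 2.96 to 14.6 in 9 WT rats (median 5.72), 1.20 to 12.6 in 9 HIP rats (median 10.8) and 1.12 to 16.5 in 10 AKO rats (median 5.40), and the groups overlapped. Pcp2 was above 3 reads in 4 rats, WT rat 10RT51 (5.41), HIP rats 10RT49 (4.96) and 10RT46 (4.96), and AKO rat 6AKO35 (5.05). These reads are too few to order the rats.

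These 6 genes were compared with olfactory bulb genes. The mean log2(normalized count + 1) of 7 bulb genes (Tbx21, Doc2g, Cdhr1, Eomes, Th, Trh and Barhl2) was 2.82 to 5.26 in 18 of the 28 libraries and 6.36 to 9.07 in the other 10, with none between. The lower set held 6 rats of each genotype, among them HIP rat 10RT46 with its high pineal and choroid plexus genes. The higher set held 3 WT, 3 HIP and 4 AKO rats. These sets are defined by the data and are not groups of the study. In the lower set, Tbx21 (0 to 6.54), Eomes (1.63 to 13.6), Trh (0 to 48.6) and Barhl2 (0 to 22.5) went below the floor of 3 reads. The list mean is therefore less certain in that set. Barhl2 was at 3.60 to 20.3 in the higher set and did not separate the 2 sets. Correlations between each gene and the list mean were computed within each set (Pearson, two-sided permutation test with 100000 resamples, 12 relations, Benjamini-Hochberg adjustment).

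Pax6 rose with the bulb genes in both sets. In the 10 libraries of the higher set, r was 0.92 (permutation p = 0.00052, adjusted p = 0.00624) and Spearman's rho 0.89 (permutation p = 0.00117), with r = 0.88 without the 2 libraries farthest from the median. In the 18 libraries of the lower set, r was 0.60 (permutation p = 0.00906, adjusted p = 0.0217) and rho 0.63 (permutation p = 0.0064), with r = 0.57 without the 2 farthest. The highest Pax6, 338, was in AKO rat 6AKO35, where the mitral cell gene Cdhr1 was at 7705.

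Cbln1 also rose with the bulb genes in both sets, with r = 0.88 in the higher (permutation p = 0.0022, adjusted p = 0.0088, rho = 0.84, permutation p = 0.00377) and r = 0.64 in the lower (permutation p = 0.00389, adjusted p = 0.0117, rho = 0.70, permutation p = 0.00151). Without the 2 farthest libraries, r was 0.91 and 0.60. Zic1 did so in the higher set (r = 0.90, permutation p = 0.00174, adjusted p = 0.0088, rho = 0.85, permutation p = 0.00292, and r = 0.85 without the 2 farthest). In the lower set, Zic1 gave r = 0.07 (permutation p = 0.796, adjusted p = 0.796, rho = 0.06, permutation p = 0.81, and r = 0.29 without the 2 farthest).

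Car8 went the other way, with r = -0.56 in the lower set (permutation p = 0.0156, adjusted p = 0.0312, rho = -0.54, permutation p = 0.0226). Without the 2 farthest libraries it was r = -0.42. In the higher set r was -0.46 (permutation p = 0.177, adjusted p = 0.265, rho = -0.44, permutation p = 0.203, and r = -0.37 without the 2 farthest). Zic2 did not pass the adjusted test in either set. Its r was 0.63 in the higher (permutation p = 0.0492, adjusted p = 0.0843, rho = 0.70, permutation p = 0.0302), where it fell to 0.34 without the 2 farthest and so rests on them, and 0.09 in the lower (permutation p = 0.71, adjusted p = 0.796, rho = -0.14, permutation p = 0.592, and r = 0.25 without the 2 farthest). Neurod1 gave r = -0.14 in the higher set (permutation p = 0.721, adjusted p = 0.796, rho = -0.31, permutation p = 0.388) and -0.07 in the lower (permutation p = 0.776, adjusted p = 0.796, rho = 0.03, permutation p = 0.895). Without the 2 farthest, these were -0.84 and -0.16. Of the 12 relations, 6 had an adjusted p under 0.05.

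**Figure D4:**
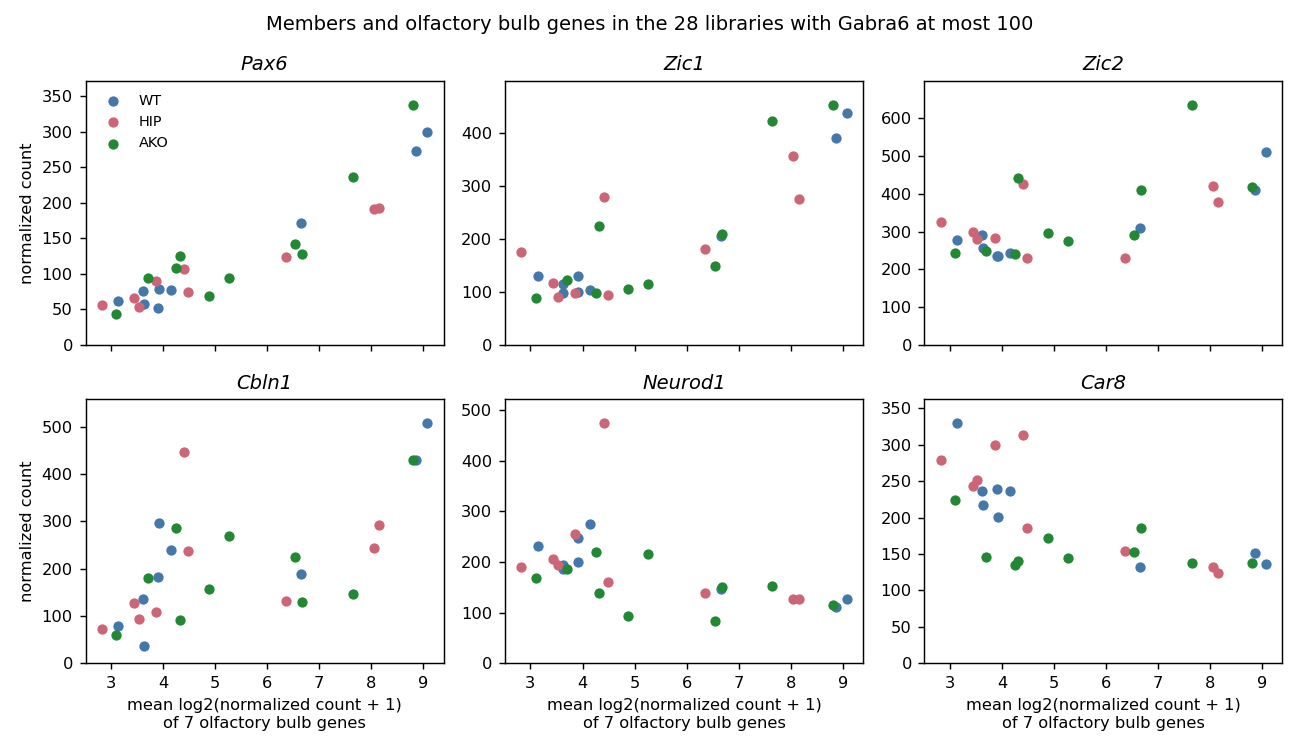
Normalized count of 6 genes against the mean log2(normalized count + 1) of 7 olfactory bulb genes in the 28 libraries other than 10RT43 and 12RT23, by genotype. The libraries lie in a set of 18 up to 5.26 and a set of 10 from 6.36; Pax6 and Cbln1 rise with the bulb genes in both sets.

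The genotypes were compared by limma on log2(normalized count + 1), two-sided, with Benjamini-Hochberg adjustment over all tested genes. The HIP vs. WT and AKO vs. WT comparisons share the WT rats, among them 10RT43. In HIP vs. WT, 0 of the 10 genes had an unadjusted p under 0.05, compared with 2.57% of all 17085 genes (439), and 0% of all genes had an adjusted p under 0.05 in limma. The log2 difference was 0.03 ± 1.29 (SE, n = 10 per group, limma p = 0.980) for Gabra6, -0.46 ± 1.37 (limma p = 0.738) for Pcp2 and -0.68 ± 1.17 (limma p = 0.566) for En2. Each group contains 1 of the 2 high libraries. The median over the 10 genes was -0.28, and that over all genes was 0.00184. The 10 genes were chosen from values that include both high libraries, so the 2 medians are no test.

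In AKO vs. WT, where the WT group alone holds a high library, 0 of the 10 genes had an unadjusted p under 0.05. The share of all 17058 genes was 9.34% (1594), and 0.0997% (17) had an adjusted p under 0.05, again with 0 of the 10. All 10 differences were negative, with a median of -0.90 compared with 0.00142 over all genes. The 10 genes were chosen from values that include the high levels in 10RT43, so this shared sign restates the choice and is no test. Gabra6 differed by -1.34 ± 1.105 (SE, n = 10 per group, limma p = 0.239), Pcp2 by -0.92 ± 1.13 (limma p = 0.423), Neurod1 by -0.89 ± 0.54 (limma p = 0.118) and Car8 by -0.94 ± 0.55 (limma p = 0.103).

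Without 10RT43 and 12RT23, 9 of the 10 genes could be tested. En2 was not, since its mean was then under 1, so it had passed the filter only through the high libraries. In HIP vs. WT, 0 of 9 passed an unadjusted p of 0.05, compared with 2.18% of all genes. Gabra6 differed by 0.43 ± 0.34 (SE, 9 rats per group, limma p = 0.224), and the other 8 genes by -0.14 to 0.07. In AKO vs. WT, 1 of 9 passed, compared with 10.3% of all genes. That gene was Car8, at -0.36 ± 0.15 (SE, 10 AKO and 9 WT rats, limma p = 0.0271, adjusted p = 0.424). Its range was 135.1 to 224 in AKO rats (median 144.99) and 132.8 to 329 in WT rats (median 217), so the groups overlapped, and Car8 also varied with the bulb genes as given above, whose part in this difference was not tested. Gabra6 differed by -0.20 ± 0.39 (limma p = 0.604). Of the 9 AKO vs. WT differences, 5 were negative and 4 positive, with a median of -0.076.

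The other genes of the 2 cell types were read from the same fits. In HIP vs. WT, 0 of 11 other granule genes and 1 of 16 other Purkinje genes (Pcp4, -0.44, limma p = 0.0494, adjusted p = 0.999) passed the unadjusted threshold, and the medians of the lists were -0.15 and -0.18. In AKO vs. WT, 1 of 11 (Cadps2, -0.60, limma p = 0.0277, adjusted p = 0.474) and 2 of 16 (among them Plcb4, -0.55, limma p = 0.0159, adjusted p = 0.412) passed, all lower in AKO rats, with list medians of -0.54 and -0.44. The WT group alone holds 10RT43, in which 10 of these 11 and 14 of these 16 genes were above all 28 other rats. These medians are therefore no test of genotype. Without the 2 high libraries, 0 of 8 granule genes and 3 of 15 Purkinje genes passed in AKO vs. WT, where 10.3% of all genes did, 2 of them lower, such as Plcb4 (-0.41, limma p = 0.0254), and Homer3, a synaptic scaffold protein, higher (0.45, limma p = 7.61e-05, adjusted p = 0.0540). With all rats, Homer3 differed by -0.01 (limma p = 0.987). In HIP vs. WT without the 2 libraries, 0 of 9 and 0 of 15 passed, where 2.18% of all genes did. The list medians without the 2 libraries were -0.0087 and 0.010 in HIP vs. WT and -0.23 and -0.10 in AKO vs. WT. The lists were shorter because some genes then had a mean under 1. They had thus passed the filter only through the high libraries. These genes were Crtam, Tlx3 and Skor2 in both comparisons, and Barhl1 in AKO vs. WT.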

How the data were processed

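Brain RNA-seq of 30 rats (10 WT, 10 HIP and 10 AKO) was analysed. The authors aligned reads to rn7 and counted them per gene in Partek Flow, and their processing notes name Partek 10.0.22.0228, Bowtie2 and STAR 2.7.8a. Division of the counts by DESeq2 size factors was done by the authors. The deposited table thus holds a signal on the scale of counts, which is not made of whole numbers. In each rat, 80.6% to 84.0% of the values below 100 were whole multiples (tolerance 0.02 reads) of a step taken as 1 read. Whole reads were therefore not recovered, no count test was run, and reads are estimates. Intervals are exact binomial and, like the floor of 3 reads, cover counting error only.

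Groups came from the sample labels, and columns were matched to rats by name. Genotypes were compared with limma 3.58.1 in R 4.3.3 (lmFit, eBayes with trend) on log2(normalized count + 1), a scale that understates changes of low genes, over genes whose mean in the rats compared was 1 or more. The fit was tested on simulated data. Permutation tests used Python 3.11.15, scipy 1.17.1, numpy 2.4.6 and pandas 2.3.3. The genes named are the 10 members, genes of the marker lists, and the 10 genes most correlated with Gabra6 and with Pcp2, and any other gene was named after its values were seen. The members and lists were chosen with earlier results of these data known.

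Alternatives to the fit were a pseudocount of 0.1 or 5, an unfiltered table or a minimum mean of 10, a fit of all 30 rats together, robust eBayes, quantile normalization, sample-quality weights, scaling to the same total, other Gabra6 thresholds, other background handling, each rat left out, and both high libraries left out. Scaling of the bulb correlations and the repeat of the list counts without the high libraries were added after the data were seen. Some genes of the lists, and 1 of the genes most correlated with Gabra6, are included in the counts but are not reported here by name or value.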

Additional observations from a re-analysis of the deposited data

Results flagged for a closer look

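A rat was noted where its gap to the next rat, divided by the spread from lowest to highest in its group, was above the 95% limit of Dixon's test for groups of 10. Of 30 combinations of gene and group, 21 had such a rat, which was 10RT43 in 10, 12RT23 in 9 and another rat in 2. The 10 genes were chosen from the values of these rats, so for 10RT43 and 12RT23 this restates the choice and is no test.

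In the WT group, 10RT43 stood apart for Gabra6 (17979), Cbln3 (5719), Cbln1 (16318), Neurod1 (8643), En2 (1592), Zic1 (6758), Zic2 (5734), Pax6 (1263), Pcp2 (5141) and Car8 (11287 normalized counts). In the HIP group, 12RT23 stood apart for Gabra6 (1564), Cbln3 (758), Cbln1 (2094), Neurod1 (1410), En2 (138.2), Zic1 (1202), Zic2 (885), Pcp2 (418) and Car8 (1276). In the AKO group, Zic2 was at 635 in 4KAH35, above the next value of 440, and Pcp2 was at 5.05 in 6AKO35, above the next value of 2.10. The Pcp2 value is 6.13 estimated reads, close to the floor.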

How the results depend on the processing

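No paired analysis was possible because the columns carry rat names and no replicate number is shared between groups. In AKO vs. WT, the number of the 10 genes past an unadjusted p of 0.05 was 0 and became 1 (Car8) with sample-quality weights and without the libraries with Gabra6 above 100, and 0 to 1 when each rat was left out in turn, with 1 only without 10RT43. In HIP vs. WT it was 0 in every alternative run. En2 had no value in AKO vs. WT without 10RT43, nor in HIP vs. WT without both libraries, since its mean was then under 1.

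The signs of differences that did not pass the test were not stable. In HIP vs. WT, Gabra6 was -0.072 with a pseudocount of 5. With sample-quality weights, the HIP vs. WT values were Cbln3 0.43, Cbln1 0.14, Neurod1 0.048, En2 0.11, Zic1 0.39, Zic2 0.24, Pax6 0.28, Pcp2 0.59 and Car8 0.068, and the AKO vs. WT values were Cbln1 0.14, Zic1 0.11, Zic2 0.17, Pax6 0.45 and Pcp2 0.33. Without the 2 high libraries, HIP vs. WT turned to Neurod1 0.054, Zic1 0.031, Zic2 0.066 and Car8 0.057, and AKO vs. WT to Zic1 0.067, Zic2 0.16, Pax6 0.21 and Pcp2 0.23.

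With each rat left out in turn, HIP vs. WT was -0.71 to 1.17 for Gabra6, -1.21 to 0.81 for Cbln3, -0.79 to 0.23 for Cbln1, -0.50 to 0.34 for Neurod1, -1.37 to 0.32 for En2, -0.51 to 0.32 for Zic1, -0.36 to 0.22 for Zic2, -0.46 to 0.073 for Pax6, -1.27 to 0.69 for Pcp2 and -0.52 to 0.32 for Car8. AKO vs. WT was -0.63 to 0.067 for Zic1, -0.37 to 0.16 for Zic2, -0.31 to 0.21 for Pax6 and -1.14 to 0.23 for Pcp2, and it stayed negative for the other 6 genes. The cause of these turns was not tested beyond the 2 libraries named.

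Scaled to the same total, 12RT23 as a percentage of 10RT43 was 7.95 for Gabra6, 12.1 for Cbln3, 10.9 for Cbln1, 13.4 for Neurod1, 14.8 for Zic1 and 9.10 for Car8. Without background subtraction it was 12.8 for Cbln1, 16.3 for Neurod1, 17.8 for Zic1, 15.4 for Zic2, 24.3 for Pax6 and 11.3 for Car8. The 2 libraries with Gabra6 above 100 were the same in the alternatives run for them, and the Pearson correlations with the bulb genes kept their signs when libraries were scaled to the same total. With 1 high library in each of WT and HIP, the shares in them have no replicate.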
